A study of Mus musculus with 2 samples.

Results

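A group of 9 marker genes of cholangiocytes, the epithelial cells of bile ducts, and of liver progenitor cells was examined in regenerating WT and PPARβ-null (KO) livers. They are the keratins Krt7, Krt8, Krt18, Krt19 and Krt23, the transcription factor gene Sox9, the adhesion molecule gene Epcam, the osteopontin gene Spp1 and the claudin gene Cldn4. They were taken by symbol, and all 9 were found among the 33224 gene symbols of the table with a usable estimate. The RNA came from livers of male C57BL/6 mice taken 48 hr after partial hepatectomy (PH), the surgical removal of liver lobes that sets off regrowth. The first group was wild type and the other carried the PPARβ-null genotype, which lacks the nuclear receptor encoded by Ppard, and the label of both gives an age of 4 months within a stated range of 3 to 5 months. Each genotype was sequenced as 1 library, so the 2 libraries give no spread between mice, no test between genotypes was possible, and every difference below is one between 2 libraries. Whether a library held RNA of a single mouse or of a pool is not given in the sources used here.

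Keratins are the intermediate filament proteins of epithelial cells, and each filament is built of pairs of a type I and a type II keratin. Hepatocytes make Krt8 (type II) and Krt18 (type I), whereas cholangiocytes make Krt7 (type II) and Krt19 (type I) as well. Sox9 marks cholangiocytes and a population of hepatocytes next to the portal tract, and with Epcam and osteopontin it is used to follow the ductular reaction, in which small duct-like cells with progenitor features multiply when hepatocytes cannot. After a standard PH the liver regrows mainly by division of its mature cells.

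The level of a gene is given as FPKM, fragments per kilobase of exon scaled to all mapped fragments, which takes gene length into account and so can be compared between genes. Depth was estimated from the smallest steps of the values of genes with 1 exon, at 51.8 fragments per FPKM and kilobase for WT and 53.5 for KO. The 95% interval of each ratio rests on fragments estimated in this way and covers counting error only.  It leaves out differences between mice, preparations and sequencing lanes, and the sample names in the table place the libraries on separate lanes, so that lane and genotype cannot be told apart. In the 15727 genes whose mean FPKM over both libraries reached 0.1, log2 KO/WT had a median of -0.25, or 1.19-fold higher in WT, and it was -0.24 in the 11723 expressed genes, those with a mean of at least 1. The ratios are therefore also given relative to the median of expressed genes. Ppard, the targeted gene at chr17:28369699-28438414, had 2.67 FPKM in WT and 2.42 in KO. This value of the whole locus does not tell the libraries apart, and which bases the null allele lacks is not given in the sources used here.

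The members lie on 4 chromosomes, with coordinates on NCBIM37 (mm9). Krt7 (chr15:101241474-101260744, plus strand), Krt8 (chr15:101827142-101834773, minus strand) and Krt18 (chr15:101857116-101862457, plus strand) share chromosome 15. Krt8 and Krt18 are neighbours with 23.9 kb between the genes, and Krt7 lies 566 kb from Krt8. Krt19 (chr11:100002124-100009979, minus), Krt23 (chr11:99339288-99354451, minus) and Sox9 (chr11:112643517-112649074, plus) are on chromosome 11, where Krt19 and Krt23 are 648 kb apart. Spp1 (chr5:104864137-104870069, plus) and Cldn4 (chr5:135420996-135422804, minus) are on chromosome 5, and Epcam (chr17:88035319-88050446, plus) is on chromosome 17. Their longest transcripts have 10 exons in Epcam, 9 in Krt7 and Krt8, 8 in Krt23, 7 in Krt18, 6 in Krt19 and Spp1, 3 in Sox9 and 1 in Cldn4. The locus of Krt18 starts 1531 bases before the annotated gene and overlaps 2 loci without a symbol, which had 0.811 and 0.903 FPKM in WT and 0.729 and 1.20 in KO.

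Promoter sequences were taken from RefSeq on GRCm38.p6, a later build than that of the table, so these coordinates differ from those above. Of the 9 members 7 had an entry, and Krt19 and Sox9 had none. Each window runs from 250 bases before the annotated start to 30 after it. The windows of the most abundant keratin pair, of the biliary keratin Krt7 and of the first Spp1 start are shown, because these genes differed in how far apart the 2 libraries were. Capitals mark the motifs found.
Krt7, chr15:101412153-101412432, plus strand: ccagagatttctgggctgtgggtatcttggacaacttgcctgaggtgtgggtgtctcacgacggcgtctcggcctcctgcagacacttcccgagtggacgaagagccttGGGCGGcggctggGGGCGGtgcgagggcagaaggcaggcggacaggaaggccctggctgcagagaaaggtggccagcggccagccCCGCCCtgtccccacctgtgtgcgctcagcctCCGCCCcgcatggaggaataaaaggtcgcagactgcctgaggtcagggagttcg
Krt8, chr15:102004313-102004592, minus strand: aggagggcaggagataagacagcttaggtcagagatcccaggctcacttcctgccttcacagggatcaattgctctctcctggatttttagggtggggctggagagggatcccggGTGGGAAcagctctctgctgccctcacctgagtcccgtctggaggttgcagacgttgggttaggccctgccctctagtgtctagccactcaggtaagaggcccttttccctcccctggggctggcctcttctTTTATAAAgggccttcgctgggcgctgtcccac
Krt18, chr15:102027966-102028245, plus strand: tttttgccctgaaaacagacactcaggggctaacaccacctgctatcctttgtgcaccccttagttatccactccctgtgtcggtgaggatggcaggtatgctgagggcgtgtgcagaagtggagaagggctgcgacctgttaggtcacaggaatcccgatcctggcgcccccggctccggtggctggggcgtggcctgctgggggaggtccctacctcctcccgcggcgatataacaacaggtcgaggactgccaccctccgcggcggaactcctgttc
Spp1, chr5:104434861-104435140, plus strand: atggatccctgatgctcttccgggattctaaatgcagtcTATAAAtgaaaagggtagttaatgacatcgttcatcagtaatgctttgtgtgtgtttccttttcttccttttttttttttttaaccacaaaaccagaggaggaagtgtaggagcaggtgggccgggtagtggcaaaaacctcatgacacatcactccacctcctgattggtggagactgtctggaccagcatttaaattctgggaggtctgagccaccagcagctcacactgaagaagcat

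Motifs were searched on both strands as the TATA box TATAAA, the GC box GGGCGG bound by Sp1, the AP-1 site TGANTCA, the RBPJ site GTGGGAA of Notch signaling, the TEAD site GGAATG of YAP signaling, and the PPAR response element, written as AGGTCA, any base and AGGTCA again. The Krt7 window held 4 GC boxes, 141, 128, 56 and 24 bases before the start. A GC box was present in 34.7% of the 32851 windows of all promoters. The Krt8 window held an RBPJ letter match 135 bases before the start, which 5.94% of all windows had, and a pair of overlapping TATA boxes on opposite strands, 3 and 1 bases before the start. In the Spp1 window a TATA box lay 211 bases before the start, and 13.1% of all windows had this motif. The Krt18 and Krt23 windows and that of a second Spp1 start held none of the 6 motifs. Epcam had a GC box 58 bases before the start, and Cldn4 had GC boxes at 44 and 5 and AP-1 sites, found in 7.46% of windows, at 240 and 158 bases. No member window held the TEAD site (13.9% of all windows) or the PPAR response element (0.0365%). These are matches of letters, not binding sites.

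Keratin genes have processed copies elsewhere in the genome, so reads of a member may be shared with a copy. The longest annotated transcript of each member was aligned to NCBIM37. Krt8 had a copy without introns at chr7:24142113-24143830 (plus strand) with 98.8% identity over 1717 aligned bases, and 501 of 1706 windows of 100 bases, the read length, were identical in gene and copy. This copy overlaps the row of Nlrp4e, which is listed at 0 in both libraries. The stretch of coding sequence with the most differences, coding bases 816 to 915, is shown with the same stretch of the copy at chr7:24142959-24143058, and capitals mark the 5 bases that differ.
Krt8 transcript: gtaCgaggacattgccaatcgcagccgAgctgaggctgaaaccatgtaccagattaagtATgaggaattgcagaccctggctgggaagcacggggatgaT
Krt8 copy: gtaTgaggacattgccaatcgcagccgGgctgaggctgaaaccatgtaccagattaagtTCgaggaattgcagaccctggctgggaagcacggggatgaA
How the alignment placed reads that match both was not given in the sources used here, so the Krt8 level is uncertain to that extent. Krt18 had 3 copies without introns, on chromosomes 13, 8 and 1, at 92.4%, 88.3% and 87.4% identity, and Krt19 had 2 partial matches in the neighbouring keratin genes at 82.0% and 82.4%. None of these had a window of 100 bases identical to the gene. For the other 6 members no copy was found.

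Across the members, the keratins of bile ducts and hepatocytes were lower in the KO library, whereas Sox9 and Spp1 had close to the same level in both. Krt7 was 3.11-fold and Krt19 3.08-fold lower in KO, Krt8 was 2.27-fold and Krt18 1.80-fold lower, and Sox9 and Spp1 were within 1.10-fold. Of the 9 members 3 (Krt7, Krt19 and Krt8) were more than 2-fold lower and 0 more than 2-fold higher in KO. The background was 13.4% of the 15727 genes lower and 2.79% higher by this rule, and 8.69% and 1.77% of the expressed genes. Of the 5 members with a mean of at least 1, 2 (Krt8 and Krt19) were past 2-fold lower. The median log2 KO/WT was -0.71 over the 8 members with a mean of at least 0.1, all of which had at least 0.1 FPKM in each library, beside -0.25 for all genes. After the KO values were centred on expressed genes, Krt8 was no longer past 2-fold, the count of members was 2, and the background was 9.46% lower and 4.52% higher. Of all genes past 2-fold, 82.7% were lower in KO as deposited, 67.6% after centring and 70.2% with equal upper quartiles.

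**Figure D1:**
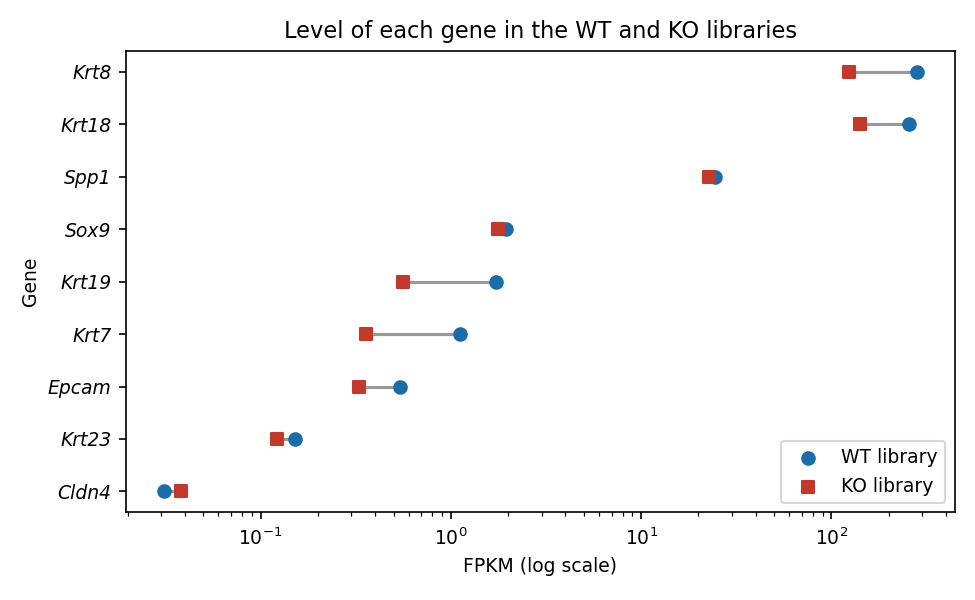
Level of each member in the WT and KO libraries, in FPKM on a log scale, with 1 point per library. Krt8 and Krt18 lie above 100 in both libraries, and the gap between the points is widest for Krt7 and Krt19.

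Krt8 and Krt18, the keratin pair of hepatocytes, were the most abundant members. Krt8 had 281.9 FPKM in WT and 124.1 in KO, from about 26361 and 11981 fragments. Krt18 had 254.4 FPKM in WT and 141.2 in KO. Both were therefore lower in KO, Krt8 by 2.27-fold (95% counting interval 2.22 to 2.32) and Krt18 by 1.80-fold (1.76 to 1.85). Relative to the median of expressed genes the ratios were 1.93 and 1.53. The level of Krt8 exceeded that of 98.4% of genes with a mean of at least 0.1 in WT and of 96.3% in KO, and Krt18 was above 98.2% and 96.8%. Their order differed between the libraries, with a Krt8/Krt18 ratio of levels of 1.11 in WT and 0.879 in KO. Together they made up 94.7% of the summed member FPKM of 566 in WT and 91.1% of 291 in KO, so the sum over the members is in effect the sum of this pair. Without the pair, the sums were 29.97 FPKM in WT and 25.9 in KO, most of it Spp1, and without Spp1 as well they were 5.51 and 3.19.

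Krt7 and Krt19 are made by cholangiocytes and not by normal hepatocytes. Krt19 had 1.72 FPKM in WT and 0.559 in KO, from about 141 and 47.1 fragments, and was 3.08-fold lower in KO (2.21 to 4.40). Krt7 had 1.12 FPKM in WT and 0.360 in KO, from about 237 and 78.9 fragments, and was 3.11-fold lower (2.39 to 4.05). The Krt19/Krt7 ratio of levels was 1.54 in WT and 1.55 in KO. No interval was computed for this ratio, and the intervals of both genes leave room for it to differ between the libraries. Relative to the median of expressed genes Krt7 was 2.63-fold and Krt19 2.61-fold lower in KO. These were low levels beside the hepatocyte pair: in WT the level of Krt18 was 148 times that of Krt19, and in KO 252 times. In liver tissue, fewer cells of a type and less RNA per cell cannot be told apart.

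Krt23, a type I keratin also used as a ductular marker, was close to the lower limit of what these libraries can compare. It had 0.153 FPKM in WT and 0.123 in KO, from about 12.4 and 10.3 fragments. The WT/KO ratio of 1.24 had an interval of 0.490 to 3.20, so a difference was not detectable at this depth, and one as large as that of Krt7 lies within the interval.

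Sox9 encodes a transcription factor that is switched on early in bile duct development. It had 1.95 FPKM in WT and 1.78 in KO, from about 418 and 393 fragments, with a WT/KO ratio of 1.10 (0.954 to 1.26). The interval held 1 and ended below the lower bounds of Krt7 and Krt19. Relative to the median of expressed genes the direction was the other way, with KO 1.08-fold higher. In WT the levels of Krt19 and Sox9 were similar, with a Krt19/Sox9 ratio of 0.883, and in KO this ratio was 0.314. The Krt7/Sox9 ratio was 0.574 in WT and 0.202 in KO.

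Spp1 encodes osteopontin, a secreted phosphoprotein that cholangiocytes make and that binds integrins and Cd44. It had 24.5 FPKM in WT and 22.7 in KO, with a WT/KO ratio of 1.08 (1.01 to 1.15). The interval leaves out 1 for counting error alone, and after centring on expressed genes the direction turned, with KO 1.09-fold higher. Spp1 was the most abundant member after Krt8 and Krt18, and its level was 14.2 times that of Krt19 in WT and 40.6 times in KO.

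Epcam encodes a cell adhesion protein of the surface of bile duct and progenitor cells. It had 0.539 FPKM in WT and 0.330 in KO, from about 57.01 and 35.9 fragments, and was 1.64-fold lower in KO (1.06 to 2.55). Relative to the median of expressed genes it was 1.39-fold lower, and its interval overlaps those of Krt19, Krt7 and Sox9. Cldn4, a tight junction protein of epithelia, rested on about 2.91 fragments in WT (0.0311 FPKM) and 3.68 in KO (0.0381 FPKM). The KO/WT ratio of 1.23 had a counting interval of 0.219 to 8.82, and no difference was detectable.

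**Figure D2:**
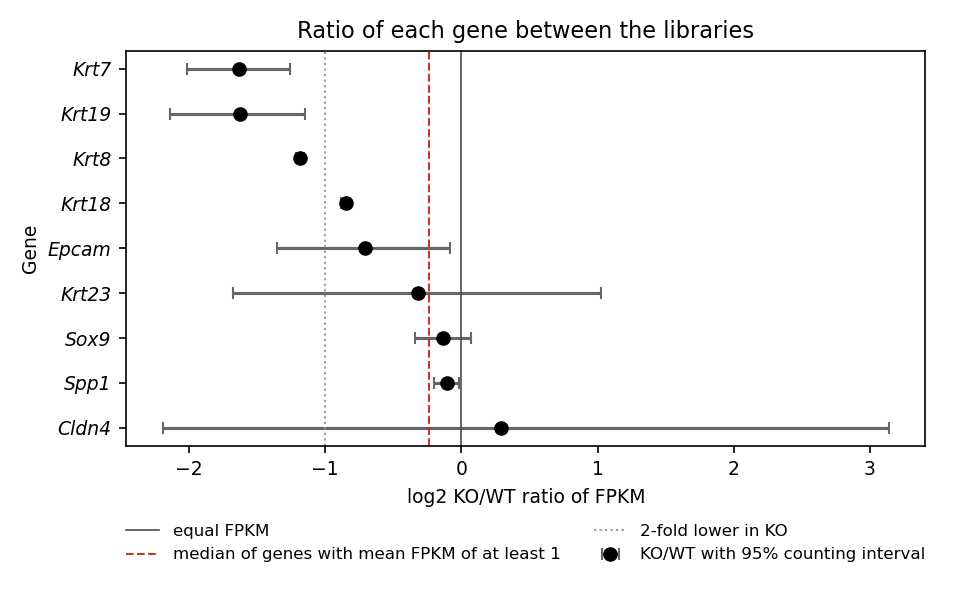
KO/WT ratio of the FPKM of each member on a log2 axis, with the 95% interval for counting error as a bar and the median of expressed genes as a dashed line. Krt7, Krt19 and Krt8 lie past 2-fold lower, Sox9 and Spp1 lie near equality, and the bars of Krt23 and Cldn4 are wide.

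The members were then set among all genes and the rest of the keratin family. Of 50 keratin symbols in the table, 45 are not members, and 37 of these were listed at 0 in both libraries. Only Krt10, Krt14 and Krt4 of the 45 had a mean of at least 0.1 FPKM. Krt10, a keratin of differentiated epidermis, had 0.418 FPKM in WT and 0.340 in KO, with a WT/KO ratio of 1.23 (0.776 to 1.93). Krt14, a keratin of basal epithelial cells, had 0.355 in WT and 0.0314 in KO, or about 31.2 and 2.85 fragments, a ratio of 11.3 with a counting interval of 3.33 to 54.5. Krt4, a keratin of stratified mucosa, had 0.273 and 0.0194, or about 30.1 and 2.21 fragments, a ratio of 14.1 (3.93 to 134). Both were thus more than 2-fold lower in KO, but both passed the limit on low values through the WT library alone, so the count of 2 in 3 gives no support to a pattern of the family. Krt80 had 0.0713 FPKM in WT and 0.0322 in KO, and Krt79 0.0782 and 0.0134, the last from about 1.51 fragments. The counting intervals of their WT/KO ratios, 0.780 to 6.04 and 0.824 to 39.9, both held 1.

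**Figure D3:**
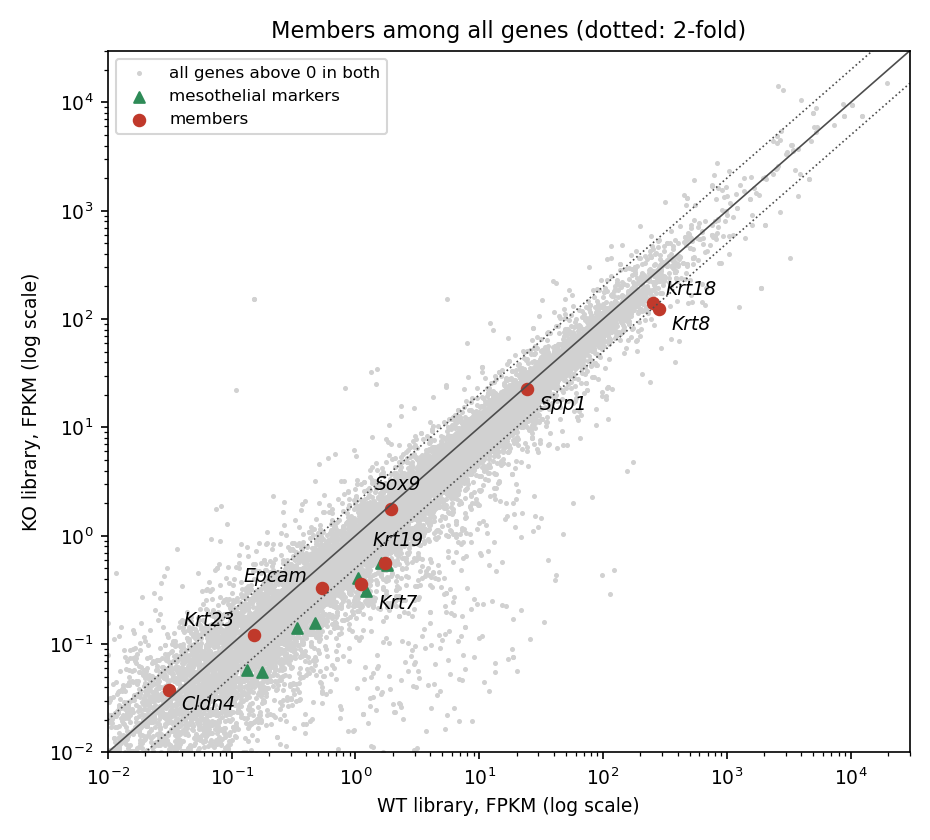
FPKM in the KO library against FPKM in the WT library, both on log scales, for all genes above 0 in both (grey), the members (red) and mesothelial markers (green). The solid line marks equal levels and the dotted lines 2-fold, and Krt7 and Krt19 lie below the lower dotted line among the mesothelial markers.

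Other genes of cholangiocytes were, on the whole, as far apart between the libraries as all genes were. Of 20 such markers outside the members, 16 had a mean of at least 0.1, of which 2 were more than 2-fold lower in KO and 0 higher, or 12.5% lower beside 13.4% of all genes. The median log2 KO/WT was -0.22, close to the -0.25 of all genes, and 13 of the 16 were lower as deposited but 8 lower and 8 higher after centring. The list's most abundant genes are not particular to bile ducts. Clu (clusterin), also a product of hepatocytes, had 916 FPKM in WT and 1022 in KO. Cldn3, a claudin of hepatocytes and bile ducts, had 48.2 and 38.6. Aqp1, the water channel of cholangiocytes that endothelium also carries, had 31.9 and 31.2. Both genes past 2-fold were low, Ddr1 with 1.02 and 0.392 FPKM and Prom1 with 0.256 and 0.119, and they were named after their values were seen. So was Pkhd1, the fibrocystin gene of the cholangiocyte cilium, with 1.506 FPKM in WT and 1.302 in KO. Of 2 more genes chosen in this way, Sctr, the secretin receptor, was listed at 0 in both libraries, and Cftr, the chloride channel, had 0.0335 and 0.0360 FPKM.

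Of 12 liver progenitor markers, 8 had a mean of at least 0.1, with 2 (25%) more than 2-fold lower in KO and 1 higher. Of all genes, 13.4% were lower and 2.79% higher by this rule. The median log2 of the list was -0.32, beside -0.25 for all genes. Tnfrsf12a, the receptor for the progenitor mitogen TWEAK, had 35.7 FPKM in WT and 32.9 in KO. Alcam, an adhesion molecule, had 22.6 and 17.8. Lgr5, a receptor for R-spondins, had 1.72 and 2.65. Cd44, the hyaluronan receptor that also binds osteopontin, was the only one past 2-fold with a mean of at least 1, with 1.54 FPKM in WT and 0.507 in KO, or 3.03-fold lower.

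The Notch pathway drives the biliary fate of progenitors through RBPJ, and it was described through 14 of its genes. Of the 13 with a mean of at least 0.1, 5 were more than 2-fold lower in KO and 0 higher, or 38.5% lower beside 13.4% of all genes, and 12 were lower as deposited but 7 lower and 6 higher after centring. Of the 5, 4 had a mean below 1, and 1 of these passed the limit on low values through the WT library alone. The median log2 was -0.59, but -0.17 over the genes with a mean of at least 1 and -0.16 with a pseudocount of 1 FPKM. Dll1, a ligand, had 3.33 FPKM in WT and 1.66 in KO, or 2.01-fold lower. Notch2, the receptor of biliary development, had 4.99 and 3.26. Hes1, a target of the pathway, was higher in KO, with 7.02 in WT and 11.9 in KO. The levels of Maml1, a coactivator, and Notch4, a receptor, cannot be read because their rows also name another gene. Both are among the 6 counted as higher after centring, and the median of -0.17 over expressed genes is the value of Notch4. With rows that name several genes left out, the median log2 of the list was -0.60.

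Tight junctions seal the bile canaliculus and the duct lumen. Of 16 claudins and junction proteins other than Cldn4, 15 had a mean of at least 0.1. Of these, 2 (13.3%) were more than 2-fold lower in KO and 0 higher, beside 13.4% and 2.79% of all genes. The median log2 was -0.18 as deposited, beside -0.25 for all genes, and 0.06 after centring. Cldn2, a pore-forming claudin, had 33.1 FPKM in WT and 53.0 in KO. F11r, the junctional adhesion molecule, had 37.7 and 29.6, in the other direction. Cldn5, the claudin of endothelium, was 3.54-fold lower in KO with 3.49 and 0.985 FPKM, and Ocln (occludin) was 2.06-fold lower with 5.79 and 2.81.

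Among 13 genes for proteins that tie keratin filaments to junctions and for other intermediate filaments, 12 had a mean of at least 0.1. Of these, 3 (25%) were more than 2-fold lower in KO and 0 higher, beside 13.4% and 2.79% of all genes. The median log2 was -0.29, close to the -0.25 of all genes. Lmna (lamin A/C), a nuclear filament, had 27.0 FPKM in WT and 16.1 in KO. Plec (plectin), a linker whose row also names another gene, had 18.6 and 15.3, and Dst (dystonin), another linker, had 13.3 and 17.6. Vim (vimentin), the filament of mesenchymal cells, was 2.74-fold lower in KO with 17.8 and 6.52 FPKM. Lmnb1 (lamin B1), which is high in dividing cells, was 7.68-fold lower with 6.71 and 0.874. Of 10 receptors for osteopontin, 9 had a mean of at least 0.1, of which 3 (33.3%) were more than 2-fold lower and 1 higher, with a median log2 of -0.37. Itgb1, the beta subunit of many integrins, had 55.2 FPKM in WT and 44.3 in KO, and Itgb5 had 17.1 and 16.9. Itga5, the fibronectin receptor subunit, was 2.45-fold lower with 10.8 and 4.42.

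**Figure D4:**
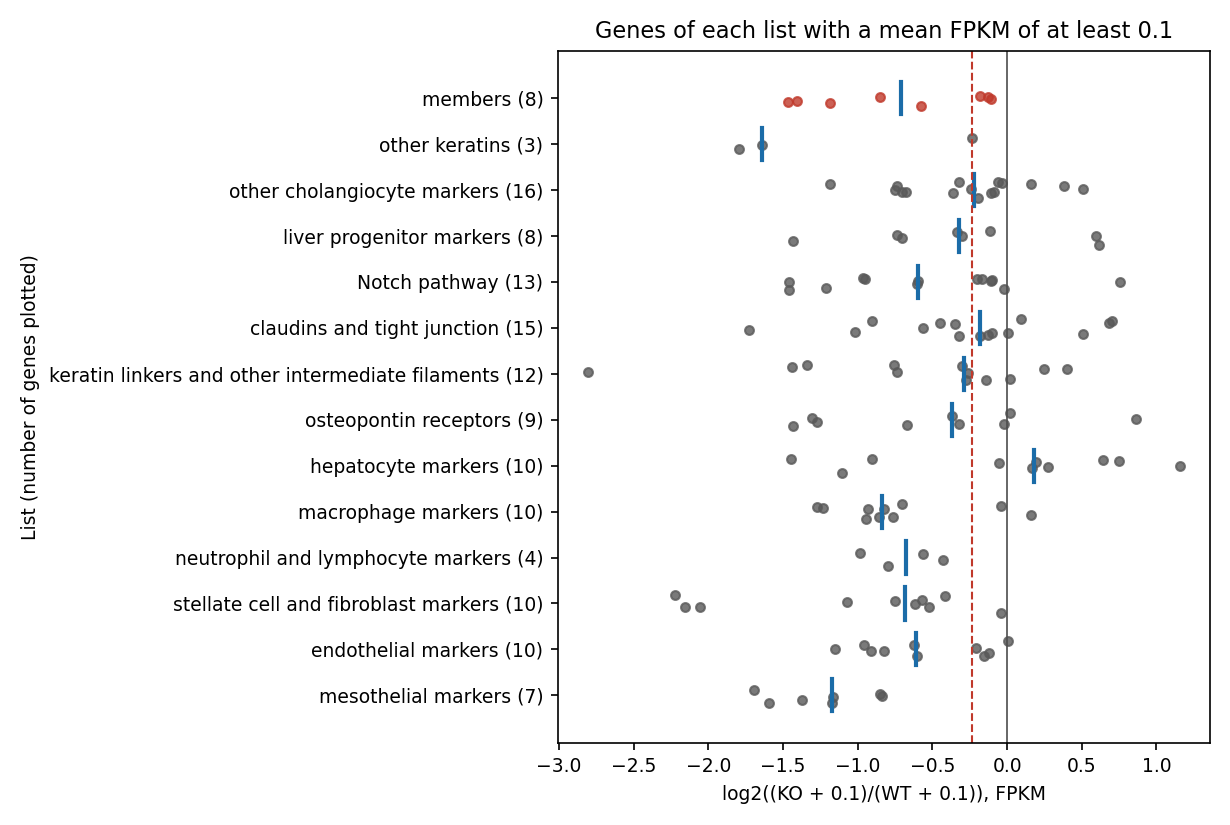
Log2 KO/WT of the genes of each list but the proliferation markers, with a pseudocount of 0.1 FPKM, 1 point per gene, blue bars for the medians and a dashed line at the median of expressed genes. The median of the other cholangiocyte markers, at -0.22, lies near that line. Those of the other keratins (-1.64), mesothelial markers (-1.17) and macrophage markers (-0.84) lie lower than that of the members (-0.71). Those of the stellate cell and fibroblast markers and of the neutrophil and lymphocyte markers, both at -0.68, lie close to it.

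Mesothelial cells, which cover the liver surface, also make Krt7, Krt8, Krt18 and Krt19. All 8 mesothelial markers were lower in KO, and their summed level was 6.81 FPKM in WT and 2.22 in KO, or 3.06-fold lower, beside 3.11-fold for Krt7 and 3.08-fold for Krt19. Ratios of this size were not particular to this list, as Cd44 was 3.03-fold and Cldn5 3.54-fold lower. Msln (mesothelin) had 1.81 FPKM in WT and 0.535 in KO, and Upk3b (a uroplakin) had 1.60 and 0.557. Upk1b, another uroplakin, had 1.22 and 0.310, levels near those of Krt7 in both libraries. Of the 8, 7 had a mean of at least 0.1 and all 7 were past 2-fold lower, beside 13.4% of all genes, although Pkhd1l1 passed this limit through the WT library alone. Their part in the lower Krt7 and Krt19 of the KO library was not tested.

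Markers of hepatocytes, the bulk of the tissue and the main source of Krt8 and Krt18, did not share a direction. Alb and Trf had no usable estimate. Of the other 10, 4 were lower and 6 higher in KO. Past 2-fold, 2 were lower (20%, beside 13.4% of all genes) and 1 was higher (beside 2.79% of all genes). The summed level of the 10 was 19018 FPKM in WT and 20597 in KO. Serpina1a, an abundant plasma protein gene, had 3337 FPKM in WT and 4039 in KO, Fgb, the fibrinogen beta chain, had 2698 and 4534, and Apoa1 had 3061 and 3503. The genes past 2-fold were the urea cycle enzymes Ass1 (2672 and 983) and Cps1 (1597 and 743), lower in KO, and Cyp2e1 (1039 and 2319), higher in KO. The sum is weighted to the most abundant of these genes. Whether the share of hepatocytes in the tissue bears on the lower Krt8 and Krt18 was not tested.

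Markers of the other cells of liver tissue were lower in KO in their sums. For comparison, 13.4% of all genes were past 2-fold lower and 2.79% past 2-fold higher in KO. The summed level of 10 macrophage markers was 80.0 FPKM in WT and 46.6 in KO. Of the 10, 9 were lower and 1 higher, and 2 (20%) were past 2-fold lower. Cd5l, the most abundant, had 18.4 and 10.8, and Lyz2, which was past 2-fold lower, had 16.8 and 6.88. The summed level of 10 stellate cell and fibroblast markers was 111 and 65.9, with all 10 lower and 4 (40%) past 2-fold lower. Among those 4 were the collagen genes Col3a1 (14.5 and 3.18) and Col1a1 (8.56 and 1.75), while the most abundant marker, Dcn, had 62.6 and 46.9. The summed level of 10 endothelial markers was 69.2 and 51.3, with 9 lower and 1 higher as deposited but 6 lower and 4 higher after centring. Only Lyve1 (2.72 and 1.17) was past 2-fold lower, or 10%, while Stab1, one of the most abundant, had 11.7 and 10.5. Of 10 neutrophil and lymphocyte markers only 4 had a mean of at least 0.1, and the summed level was 13.4 and 7.13, while Ly6g and Mpo were listed at 0 in both libraries. All 10 proliferation markers were past 2-fold lower in KO, with sums of 239 and 17.0, and 3 of them passed the limit on low values through the WT library alone. The part of these cells and of proliferation in the keratin levels was not tested.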

How the data were processed

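Hepatic RNA of 1 WT and 1 KO liver library was sequenced. Per the labels the libraries were made with the TruSeq kit and read as paired ends of 100 bases, while the study's methods describe single ends. The authors aligned reads to mm9 (NCBI37) with TopHat 2.0.0, assembled transcripts with Cufflinks 1.3.0 and estimated FPKM with Cuffdiff, and these deposited FPKM values were used. The table's columns of fold changes, test statistics, p-values and q-values hold the authors' own comparison and were not used.

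The table held 38016 loci, of which 2302 had no symbol and 850 named several, each of which was given the joint value. Values of rows sharing a symbol were added up, leaving out 21 loci flagged HIDATA. Symbols were matched to GENCODE vM1 (32451 of 33224 found). The tools were matplotlib 3.10.9, scipy 1.17.1, pandas 2.3.3 and numpy 2.4.6 under Python 3.11.15, and copies were sought with minimap2 2.31-r1302 in splice mode. List medians used log2 of FPKM plus 0.1, which understates the change of low genes, over genes with a mean of at least 0.1. Other ratios are of the FPKM as deposited. Fragments were estimated from FPKM, length and the value of 1 fragment on 1 kb, 0.0193 FPKM in WT and 0.0187 in KO. This value came from the low values among 685 and 642 single-exon genes, of which 219 and 202 were low. The score of the fit, which is 1 for exact steps, was 0.343 and 0.317. Length was that of the longest annotated transcript (4094 bases for Krt7). Where shorter transcripts were expressed, fragments are overestimated and intervals too narrow. Ratio intervals are exact Clopper-Pearson intervals. Genes resting on 3 fragments or fewer in a library are given with that interval. No p-value was computed.

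The members and lists were chosen with earlier results of these data known. Named were the members, Ppard, the 3 genes of each list with the highest mean, the 5 highest other keratins, and list genes past 2-fold with a mean of at least 1. List genes named outside this rule (Ddr1, Prom1, Pkhd1, Sctr, Cftr, Pkhd1l1, Ly6g and Mpo) were chosen after their values were seen. Cell type lists are given by sums, counts and examples. The steps were tested on simulated libraries. Alternatives changed the fold threshold, pseudocount, filter, scaling and row handling. The values of some list genes are not reported here.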

Additional observations from a re-analysis of the deposited data

How the results depend on the processing

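No paired analysis was possible because each genotype has 1 library, and for the same reason no library could be left out. Of the values recomputed for the main counts and medians, 73 lay within the interval of the list's median over its genes, or within 1.5 times the count, and 5 did not. These intervals are wide. Within them the Notch median went from -0.59 to -0.16 with a pseudocount of 1 FPKM and to -0.17 over its expressed genes, while the claudin median turned from -0.18 to 0.06 after centring. Without a filter on low FPKM, 5 keratins outside the members were more than 2-fold lower in KO and 1 higher, and with a mean FPKM of at least 1 no such keratin was left. The median log2 of the other cholangiocyte markers was -0.027 with equal upper quartiles and 0.017 after centring on expressed genes. At a fold of 1.5 the count of members lower in KO was 5, beside 26.02% of all genes. Under the scaling alternatives Krt8 was at -0.98 (equal upper quartiles) and -0.95 (centring), which left 2 members past 2-fold lower, and Sox9 was at 0.07 and 0.10 and Spp1 at 0.09 and 0.13, in the other direction from the values as deposited. The median of the members lay between -0.85 and -0.43 over all alternatives. With a pseudocount of 1 FPKM the mesothelial median was -0.54. Depth limits Krt23, Cldn4, Krt14 and Krt4, and no alternative stands in for replicates.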
